A study of Mus musculus with 18 samples.

Results

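The measurement described here is the difference between 2 knock-in lines of mouse embryonic stem cells (mESCs) in how their RNA levels changed over the first 2 days of differentiation. It is the change from day 0 to day 2 in cells with K19R EED minus the same change in cells with EED of wildtype sequence, called the step difference below. It uses 8 of the 18 libraries of the series, 2 in each of 4 of its 9 groups, and all 19092 genes that passed a filter on low counts. Both lines carried EED tagged with FLAG at the gene's own locus. In one (FLAG-WT) the tagged protein had its normal sequence, and in the other (K19R) arginine, which acetyltransferases do not modify, stood in place of a lysine. Day 0 cells were mESCs kept in leukemia inhibitory factor (LIF) and in 2i, the inhibitors of MEK and GSK3. Day 2 cells were embryoid bodies, aggregates grown in suspension on a rotary shaker with LIF and 2i withdrawn. The title of the series concerns EED acetylation by CBP and P300, the targeting of Polycomb repressive complex 2 (PRC2) and mESC differentiation. How many clones stand behind each line is not stated in the labels, so the K19R substitution and other differences between the lines cannot be told apart. The labels also do not say that replicates were separate cultures, and the spread that the p-values measure may therefore be technical.

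As background, EED is the subunit of PRC2 that binds the methylated histone H3 tail and stimulates the complex, which silences developmental genes in stem cells. In LIF and 2i, mESCs hold a naive state driven by factors such as Nanog, Klf4, Esrrb and Tfcp2l1. When the inhibitors are removed, most cells of an embryoid body pass to a formative, epiblast-like state marked by Pou3f1, Otx2 and Dnmt3b. Cells at its surface form primitive endoderm, which is driven by Gata6, Gata4 and Sox17 and lays down a basement membrane of laminin and type IV collagen.

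The 8 libraries held 20158077 to 28917558 counts, and 23989 to 25662 gene names had a count in each. Each level is given in CPM, which divides a gene's count by its library's TMM-adjusted total, and is listed for replicate 1 and then replicate 2. On a principal component analysis, the main axis (72.9% of the variance) separated the days. The next axis (13.6%) set the day 2 libraries apart by line, at -49.3 and -48.9 for FLAG-WT and at 47.9 and 51.6 for K19R, while the 4 day 0 libraries lay between -7.88 and 5.40. The summed level of 5 mESC markers was 4421 to 4689 CPM at day 0. At day 2 it was 1912 and 1889 in FLAG-WT and 1433 and 1534 in K19R. Eed RNA itself went from 182 and 175 to 111 and 108 CPM in FLAG-WT and from 199 and 179.6 to 77.7 and 82.1 in K19R, a step difference of -0.54 ± 0.11, adjusted p = 0.0003. A substitution of 1 residue does not show in a gene count, so Eed cannot check the labels.

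One library stood apart at day 0. The summed level of 9 endoderm markers was 21.5 CPM in FLAG-WT replicate 1 and 115 in replicate 2, with K19R at 43.4 and 45.8. Dab2 alone made up 40.9 and 42.4 CPM of the K19R sums. At day 2 the sum of the 9 markers was 3280 and 3356 in FLAG-WT and 319 and 253 in K19R, with Alb at 0 in all 4 libraries. Most of it came from Cubn (2057 and 2159.9 CPM in FLAG-WT, 192 and 133 in K19R) and Dab2 (1132 and 1111, then 116 and 104). Afp, a fetal serum protein made by visceral endoderm, was at 1.78 and 55 CPM in the 2 FLAG-WT libraries of day 0. At day 2 it was not lower in K19R, at 2.95 and 6.82 against 2.76 and 2.83 in FLAG-WT. Amn, Apoa1, Ttr and Fgb were lower in K19R at day 2. The day 2 sum differs between the lines alongside every gene group below, and its part in those results was not tested. Counts of the endoderm lists, and values of several endoderm genes, are given with FLAG-WT day 0 replicate 2 and without it. Fibroblast markers (8) summed to 10.1 to 19.2 CPM, neural ones (4) to 5.70 to 11.5, and trophoblast ones (6, with Prl3d1 and Tpbpa at 0 throughout) to 4.59 to 45.1. Blood and endothelial markers (5, with Hba-x at 0 in all libraries but K19R day 2 replicate 1) summed to 118 to 372, of which Pecam1, an adhesion protein that mESCs also express, made up 94.9 to 362. Since these are bulk samples, fewer cells of a type and less RNA per cell cannot be told apart. Y-linked genes differed between the lines at both days, with Ddx3y at 9.33 and 9.13 at day 0 and 9.74 and 11.5 at day 2 in FLAG-WT, and 58.5 and 56.8 then 56.3 and 52.1 in K19R (CPM). The part that this line difference has in other results was not tested.

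The step difference passed an adjusted p of 0.05 in 5182 of 19092 genes, or 27.1% (edgeR's quasi-likelihood test with Benjamini-Hochberg adjustment over all genes tested, as for each adjusted p below). It was positive in 2434 genes (12.7%), which gained more or lost less in K19R. It was negative in 2748 (14.4%), which gained less or lost more in K19R. The median over all genes was 0.00 on the log2 scale. A difference of at least 2-fold was called in 1680 genes (8.80%), 679 positive (3.56%) and 1001 negative (5.24%). Without FLAG-WT day 0 replicate 2 the count was 4055, 1781 positive and 2274 negative, and 3924 of the 5182 genes were still called with the same sign. Over the step itself, 10709 genes (56.1%) changed in FLAG-WT and 10766 (56.4%) in K19R.

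**Figure D1:**
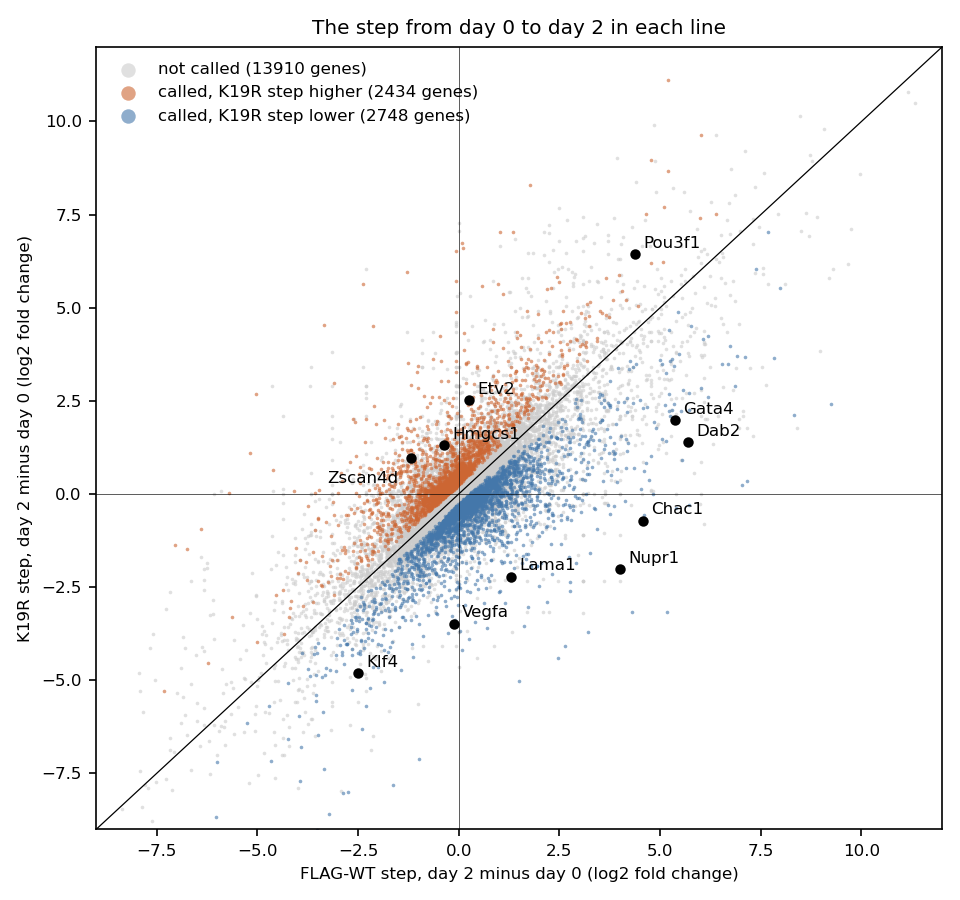
Log2 change from day 0 to day 2 in FLAG-WT (horizontal axis) and in K19R (vertical axis), 1 point per gene, with the genes whose step difference passed the adjusted p of 0.05 in colour. Of 19092 genes, 5182 were called, and 16 genes lie outside the axes.

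The called genes were sorted by what each line did, which describes the same libraries again and is no further test. In 1320 genes (25.5% of those called) the step was called in FLAG-WT alone, and in 1245 (24.0%) in K19R alone. Both lines moved the same way in the next classes, by more in K19R in 1171 genes (22.6%) and by less in K19R in 825 (15.9%). The last of these counts was 540 without K19R day 0 replicate 1 and 539 without replicate 2. In 559 genes (10.8%) the lines moved in opposite directions. Of these, 350 rose in FLAG-WT and fell in K19R, and 209 did the reverse. The remaining 62 (1.20%) were called in neither line's step. The lines also differed more at day 2 than at day 0 in 4286 of the 5182 genes (82.7%). The same share was not counted over all genes tested, so it cannot be read as particular to the called ones. Tested on its own, the line difference was called in 2003 genes (10.5%) at day 0 and in 7973 (41.8%) at day 2. Leaving out a day 0 library lowered the day 0 count, to 879 and 845 when FLAG-WT replicates 1 and 2 were left out in turn, and to 888 and 955 for those of K19R.

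Among the genes with the largest negative step differences, several serve in stress responses or in endoderm. Nupr1 (chr7:126623249-126630861 on GRCm38), a stress-induced chromatin protein, went from 2.06 and 1.78 to 30.7 and 30.8 CPM in FLAG-WT and from 5.79 and 4.89 to 1.32 and 1.32 in K19R. It therefore rose in FLAG-WT and fell in K19R, with a step difference of -6.02 ± 0.30, adjusted p = 6.4e-14. Chac1 (chr2:119351229-119354381), an enzyme that breaks down glutathione, went from 3.67 and 2.41 to 70.02 and 74.8 CPM in FLAG-WT and from 4.39 and 4.47 to 2.57 and 2.82 in K19R (-5.29 ± 0.30, adjusted p = 3.8e-13). All 4 K19R libraries and the FLAG-WT day 0 libraries were below 5 CPM, far under FLAG-WT at day 2. Srgn (chr10:62493833-62527451), a secreted proteoglycan core protein, went from 12.3 and 12.7 to 169.8 and 169.7 CPM in FLAG-WT and from 15.2 and 16.6 to 11 and 11 in K19R (-4.29 ± 0.13, adjusted p = 7.7e-18). Cemip, a hyaluronan-degrading protein, went from 27.9 and 29.2 to 38.2 and 36.7 CPM in FLAG-WT and from 19.995 and 23.5 to 2.31 and 1.66 in K19R (-3.83 ± 0.18, adjusted p = 1.6e-14). These 4 genes each rose in FLAG-WT and fell in K19R.

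Other genes of that group rose in both lines, by less in K19R. Dab2 (chr15:6299788-6440712), an endocytic adaptor of visceral endoderm, went from 16.8 and 26.2 to 1132 and 1111 CPM in FLAG-WT and from 41 and 42.4 to 116 and 104 in K19R (-4.30 ± 0.19, adjusted p = 2.8e-15). Its partner receptor Lrp2 (chr2:69424340-69586065) went from 61.7 and 75.9 to 1665 and 1662 CPM in FLAG-WT and from 116 and 149 to 232 and 175 in K19R (-3.97 ± 0.16, adjusted p = 7.9e-16). The 2 groups of day 2 did not overlap for either gene, which is no further support, since both were chosen by their step difference in these libraries. Pdgfra (chr5:75152292-75198215), a receptor that marks primitive endoderm, went from 1.44 and 2.29 to 216 and 219.8 CPM in FLAG-WT and from 2.18 and 2.23 to 16.6 and 16 in K19R (-3.97 ± 0.23, adjusted p = 8.1e-13). The values were -4.67, adjusted p = 1.2e-17 for Dab2, -4.13, adjusted p = 2.1e-16 for Lrp2 and -4.34, adjusted p = 1.3e-13 for Pdgfra without FLAG-WT day 0 replicate 2. Eml1, a microtubule-binding protein, went from 2.44 and 2.65 to 64.6 and 63.1 CPM in FLAG-WT and from 4.06 and 3.63 to 6.902 and 6.75 in K19R (-3.83 ± 0.22, adjusted p = 8.6e-13). The organic anion exporter Abcc2 went from 6.44 and 6.48 to 94.3 and 104 CPM in FLAG-WT and from 10.1 and 8.66 to 13.2 and 10.5 in K19R (-3.61 ± 0.19, adjusted p = 8.8e-14).

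A further set changed in FLAG-WT alone or in K19R alone. Vldlr (chr19:27216484-27254231), a lipoprotein and reelin receptor, was at 0.826 and 1.23 at day 0 and 24.3 and 23.2 at day 2 in FLAG-WT, and 1.402 and 0.884 then 1.64 and 0.916 in K19R (-4.38 ± 0.39, adjusted p = 3.2e-09). Only the FLAG-WT day 2 libraries stood above 2 CPM. Lgmn, a lysosomal protease, was at 62.8 and 68.5 at day 0 and 598 and 582 at day 2 in FLAG-WT, and 69.6 and 70.5 then 69.4 and 69.8 in K19R (-3.18 ± 0.13, adjusted p = 1.5e-15). Serpinh1, the collagen chaperone, was at 70.4 and 72.3 at day 0 and 461 and 439 at day 2 in FLAG-WT, and 59.9 and 57.7 then 54.4 and 50.7 in K19R (-2.82 ± 0.11, adjusted p = 3.8e-16). In both, the K19R step was not called. Vegfa (chr17:46016993-46032369), the endothelial growth factor, showed the other pattern, at 91.6 and 88 at day 0 and 78.8 and 85.7 at day 2 in FLAG-WT, and 87.2 and 90.9 then 8.25 and 7.64 in K19R (-3.36 ± 0.11, adjusted p = 1.4e-17). It fell in K19R alone, and the other 3 groups all lay between 78.8 and 91.6 CPM. Tbx3, a transcription factor of naive mESCs and endoderm, fell in both lines, from 434 and 419 to 244 and 261 CPM in FLAG-WT and from 423 and 429 to 44 and 45.9 in K19R (-2.49 ± 0.13, adjusted p = 5.7e-14).

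The largest positive step differences were smaller, from 2.07 to 2.42 among the 12 genes named by the same rule. Pseudogenes and genes of the Zscan4 cluster made up 4 of the 12. Their copies are near-identical, so the counts of single copies are uncertain. Etv2 (chr7:30633616-30635852), the transcription factor that starts blood and endothelial fate, was at 2.44 and 2.57 at day 0 and 3.32 and 2.69 at day 2 in FLAG-WT, and 2.69 and 2.28 then 13.8 and 15 in K19R (2.27 ± 0.41, adjusted p = 0.00013), and its FLAG-WT step was not called. Atp10a (chr7:58656166-58829420), a phospholipid flippase, went from 2.27 and 2.65 to 9.87 and 9.31 CPM in FLAG-WT and from 1.81 and 1.91 to 36.7 and 30.4 in K19R (2.22 ± 0.25, adjusted p = 1.6e-07). Lgals3bp, a secreted galectin-binding protein, went from 2.68 and 2.77 to 4.79 and 4.52 CPM in FLAG-WT and from 2.66 and 2.47 to 18.3 and 20.4 in K19R (2.14 ± 0.23, adjusted p = 5.8e-08). Slain1, a microtubule-associated protein, was at 9.74 and 10.3 at day 0 and 9.14 and 7.69 at day 2 in FLAG-WT, and 6.38 and 7.73 then 27 and 25.4 in K19R (2.16 ± 0.19, adjusted p = 1.6e-09), and Sfi1, a centrosome protein, at 9.08 and 9.25 at day 0 and 9.74 and 11.7 at day 2 in FLAG-WT, and 6.75 and 6.52 then 36.1 and 33.4 in K19R (2.16 ± 0.17, adjusted p = 2.6e-10). For these 5 genes the K19R day 2 libraries were the highest of the 8. The genes were chosen by their step difference in the same libraries, so this is no further support. Pcdh8, a protocadherin, had a step difference of 2.15 ± 0.54, adjusted p = 0.0039, but of 1.39 with an adjusted p of 0.16 without FLAG-WT day 0 replicate 1.

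**Figure D2:**
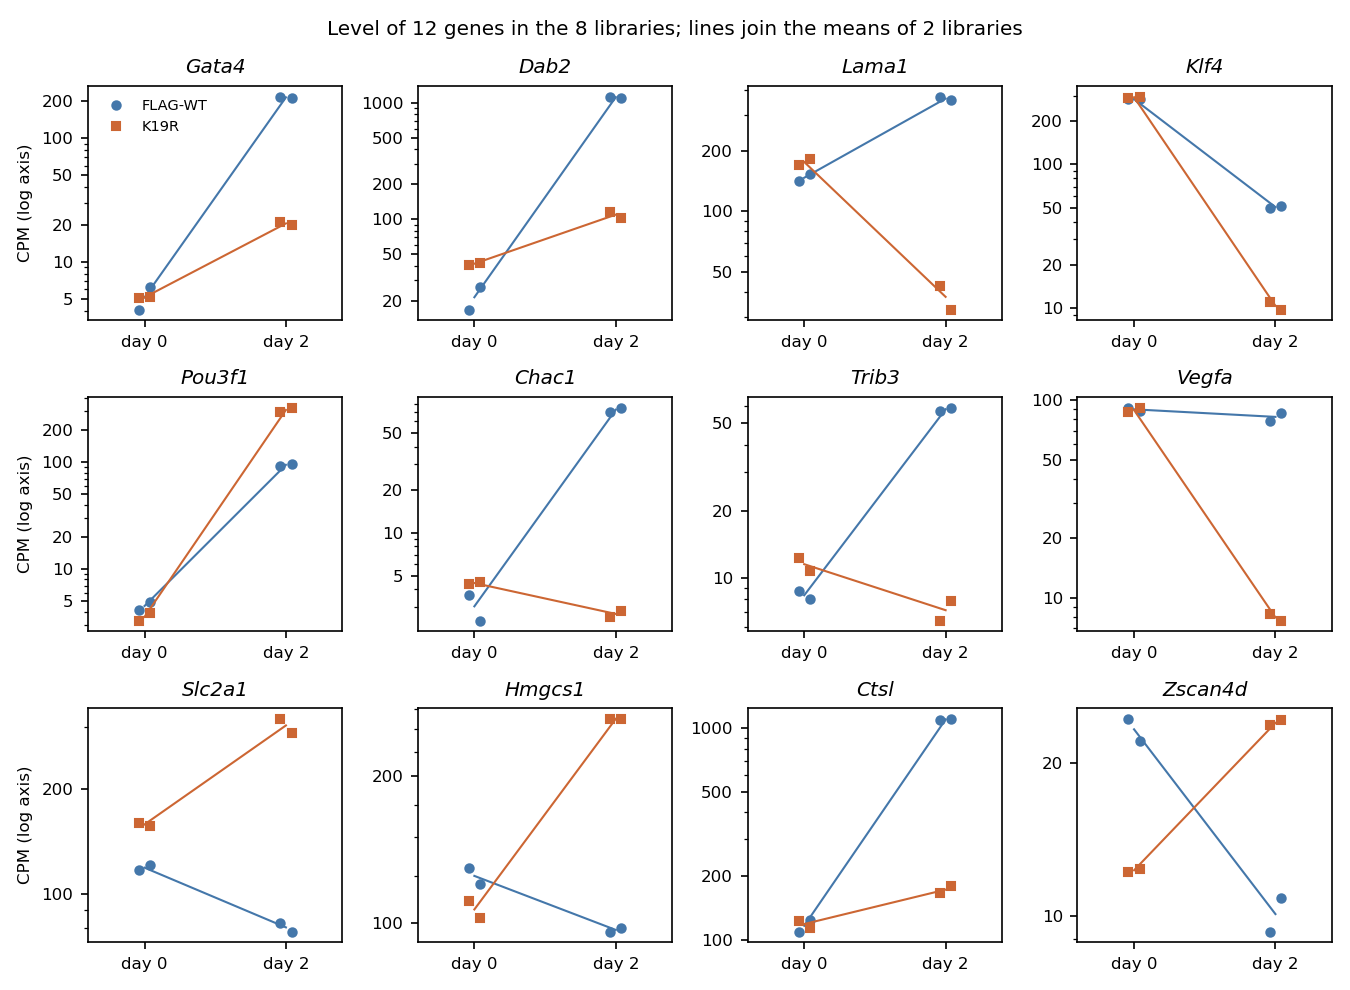
CPM of 12 genes in each of the 8 libraries, on a log axis, with 1 point per library and lines that join the means of 2 libraries from day 0 to day 2. Dab2, Gata4 and Lama1 separate the lines at day 2 with FLAG-WT above, while Pou3f1 and Hmgcs1 separate them with K19R above.

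Of 12 regulators of primitive endoderm tested, 8 had a negative step difference and none a positive one, where 14.4% and 12.7% of all genes did, and the median was -1.80. Without FLAG-WT day 0 replicate 2 the count was 10 negative and the median -2.62. Gata4 (chr14:63198922-63271692), a zinc-finger factor of endoderm, went from 4.09 and 6.21 to 217 and 212 CPM in FLAG-WT and from 5.09 and 5.21 to 20.9 and 19.99 in K19R (-3.39 ± 0.19, adjusted p = 3.5e-13). The groups did not overlap at day 2, while at day 0 all 4 libraries lay between 4.09 and 6.21. Gata6, which starts the programme, went from 2.52 and 1.86 to 160.0 and 160.2 CPM in FLAG-WT and from 1.44 and 1.12 to 25.9 and 23.6 in K19R (-1.94 ± 0.24, adjusted p = 7.4e-07). Hnf4a, a nuclear receptor of visceral endoderm, went from 0.908 and 3.72 to 96.8 and 93.7 CPM in FLAG-WT and from 2.43 and 2.79 to 15.3 and 12.5 in K19R (-2.92 ± 0.38, adjusted p = 2e-06). Each rose in both lines. They stood at -3.72, adjusted p = 1e-14 for Gata4, -1.74, adjusted p = 7.8e-06 for Gata6 and -4.28, adjusted p = 1e-10 for Hnf4a without FLAG-WT day 0 replicate 2. Cited1, a transcriptional coactivator, rose in FLAG-WT and fell in K19R, from 6.44 and 7.23 to 46 and 42.4 CPM in FLAG-WT and from 8.85 and 8.75 to 5.104 and 6.38 in K19R (-3.31 ± 0.19, adjusted p = 4e-13).

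Sox17 and Eomes, which act in both primitive and definitive endoderm, showed smaller values, of -1.34 ± 0.38, adjusted p = 0.0098 and -1.63 ± 0.28, adjusted p = 9.2e-05. The Sox17 call was lost without K19R day 0 replicate 2 (-1.16, adjusted p = 0.095). Sox7 was at 0.206 and 0.316 CPM in FLAG-WT and 0.0369 and 0.0465 in K19R at day 0, which is 1 count in each K19R library, so its step difference had no useful precision. At day 2 it stood at 104 and 105 in FLAG-WT and 8.67 and 8.62 in K19R, a line difference of -3.60 ± 0.11 (adjusted p = 2.6e-19). Foxa2 and Foxq1 were also near 0 at day 0, at 0.124 and 0.474 and 0.248 and 0.633 CPM in FLAG-WT. Their step differences were not called with all libraries (adjusted p = 0.21 and 0.092), and were called negative without FLAG-WT day 0 replicate 2 (adjusted p = 0.046 and 0.03). Foxq1 was called negative with DESeq2 too (-1.63, adjusted p = 0.017), with no filter (adjusted p = 0.044) and without K19R day 2 replicate 2 (adjusted p = 0.032). The Foxa2 value was 0.11 (adjusted p = 0.95) without K19R day 0 replicate 2.

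The products of endoderm cells, such as secreted proteins, receptors and matrix, were more mixed. Of 30 tested, 12 had a negative and 5 a positive step difference, against 14.4% and 12.7% of all genes, with a median of -0.45. The median was -0.71 with the 4 members at 0 counts in a group (Alb, Apoa2, Apoa4 and Fgb) set at the bound that 3 counts per library allow. Without FLAG-WT day 0 replicate 2 the counts were 16 negative and 2 positive, with a median of -1.06. Cubn (chr2:13276338-13491813), the endocytic receptor that works with Lrp2 and Amn, went from 0.949 and 9.13 to 2057 and 2159.9 CPM in FLAG-WT and from 0.996 and 1.77 to 192 and 133 in K19R. Its step difference was -1.78 ± 0.68 and not called (adjusted p = 0.056), but was -4.20, adjusted p = 3.2e-08 without that library. It was called negative under 4 other alternatives, with a replicate block (adjusted p = 0.049), with no filter (adjusted p = 6.2e-13), without K19R day 2 replicate 1 (-2.06, adjusted p = 0.027) and, at -0.94 (adjusted p = 0.040), without FLAG-WT day 0 replicate 1. Apob, the core protein of very-low-density lipoprotein, was at -0.74 ± 0.61 (adjusted p = 0.41) with all libraries and -2.64, adjusted p = 1.2e-07 without replicate 2. It was also called with no filter (-0.75, adjusted p = 0.0023), and was 0.036 (adjusted p = 0.96) without FLAG-WT day 0 replicate 1. Amn, the membrane anchor of cubilin, went from 1.07 and 2.174 to 66.1 and 59.1 CPM in FLAG-WT and from 1.11 and 1.49 to 5.14 and 5.804 in K19R and was called with all libraries (-3.16 ± 0.38, adjusted p = 4.1e-07) and without replicate 2 (-3.77, adjusted p = 1.4e-08).

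Of the positive genes, Afp stood at 1.78 and 55 at day 0 and 2.76 and 2.83 at day 2 in FLAG-WT, and 0.295 and 0.0931 then 2.95 and 6.82 in K19R (CPM), with 1 K19R day 0 library at 2 counts. Its step difference was 7.88 ± 1.52, adjusted p = 0.00029, and 3.87, adjusted p = 5.1e-05 without FLAG-WT day 0 replicate 2. The serum protein genes Ttr, Fgb and Apoa1, not called in the main fit, were called positive with no filter (5.35, 5.63 and 3.03, adjusted p = 5.2e-13, 0.00028 and 3.9e-06). Ttr and Fgb were called positive with DESeq2 too (5.67 and 5.02, adjusted p = 0.034 for each). All of these had 2 or fewer counts in each K19R day 0 library. Most of their FLAG-WT day 0 counts came from replicate 2, with 3 and 227 for Ttr, 2 and 50 for Fgb and 8 and 220 for Apoa1. Without FLAG-WT day 0 replicate 1 the step differences were 6.32, 6.54 and 3.96. Apoa2 and Fga, a plasma apolipoprotein and a fibrinogen chain, were at or under 2.06 CPM in all 8 libraries, with Apoa2 at 0 in K19R at day 0. They were called with that FLAG-WT library (adjusted p = 0.012 and 0.01) and not without it (adjusted p = 0.097 and 0.17). Both calls were also lost without K19R day 2 replicate 2 (adjusted p = 0.058 and 0.21). Krt18, a keratin of simple epithelia, went from 8.71 and 16.2 to 35.7 and 37.7 CPM in FLAG-WT and from 6.38 and 7.12 to 35.9 and 42.8 in K19R (0.99 ± 0.22, adjusted p = 0.0014), with 0.47 (adjusted p = 0.054) without FLAG-WT day 0 replicate 2. Rhox5, an X-linked homeobox gene, held its value, going from 63.2 and 62.1 to 93 and 88.1 CPM in FLAG-WT and from 45.7 and 43.3 to 124 and 142 in K19R (1.05 ± 0.11, adjusted p = 2.7e-08; without the library 1.06, adjusted p = 2.1e-07).

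**Figure D3:**
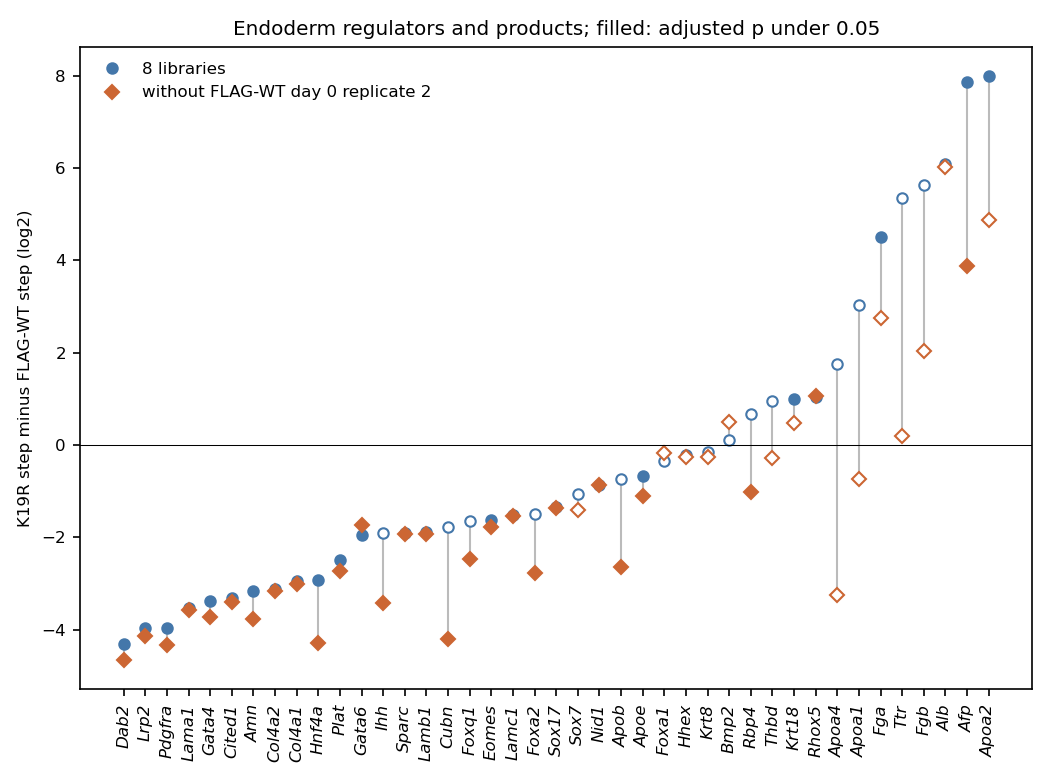
Step difference (log2) of 41 genes of the primitive endoderm regulators and the endoderm products, with all 8 libraries (circles) and without FLAG-WT day 0 replicate 2 (diamonds), filled where called. Values of genes at 0 counts in a group (Alb, Apoa2, Apoa4, Fgb) depend on the fit's prior count. The value was below 0 in 28 of the 41 with all libraries and in 32 without that library.

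The basement membrane genes named here were called without FLAG-WT day 0 replicate 2 too. Lama1 (chr17:67697259-67822647), the laminin alpha chain of the early embryo, went from 141 and 153 to 371 and 355 CPM in FLAG-WT and from 169.7 and 182 to 42.9 and 32.5 in K19R (-3.53 ± 0.19, adjusted p = 2.3e-13; without it -3.58, adjusted p = 2.8e-13). It rose in FLAG-WT and fell in K19R. The type IV collagen genes Col4a1 and Col4a2, which share a promoter region, moved in the same way. Col4a1 (chr8:11198423-11312826) went from 421 and 447 to 1330.0 and 1295 CPM in FLAG-WT and from 469.96 and 502 to 204 and 175 in K19R (-2.96 ± 0.13, adjusted p = 2.8e-15), and Col4a2 went from 146 and 153 to 535 and 524 CPM in FLAG-WT and from 154 and 160.2 to 66.6 and 61.7 in K19R (-3.12 ± 0.12, adjusted p = 2.3e-16). Lamb1, the beta chain, rose in both lines, from 56.1 and 59.8 to 583 and 578 CPM in FLAG-WT and from 60.1 and 66.6 to 176 and 167 in K19R (-1.88 ± 0.14, adjusted p = 1.3e-10). The gamma chain gene Lamc1 fell in both, from 870.2 and 892 to 663 and 657 CPM in FLAG-WT and from 1197 and 1348 to 373 and 291 in K19R (-1.52 ± 0.16, adjusted p = 5.3e-08). Sparc, a collagen-binding matrix protein, fell in K19R alone and stood at 868 and 884 at day 0 and 928 and 913 at day 2 in FLAG-WT, and 836 and 817 then 233 and 231 in K19R (-1.90 ± 0.11, adjusted p = 4.8e-13). The linker protein Nid1 fell in both, with a step difference of -0.87 ± 0.14, adjusted p = 2.5e-05.

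Of 18 genes of the naive state tested, 11 had a negative and 1 a positive step difference, against 14.4% and 12.7% of all genes, with a median of -0.56, and without FLAG-WT day 0 replicate 2 there were 10 negative and none positive. Klf4 (chr4:55527143-55532466), a factor that holds the naive state under LIF, went from 282 and 285 to 49.8 and 50.9 CPM in FLAG-WT and from 289.6 and 295 to 11 and 9.74 in K19R (-2.32 ± 0.13, adjusted p = 2.3e-13). At day 0 the 4 libraries lay between 282 and 295, and at day 2 both K19R libraries were below both FLAG-WT ones. Tfcp2l1, which acts downstream of LIF and GSK3 inhibition, went from 386 and 400.3 to 79.9 and 84 CPM in FLAG-WT and from 346 and 349 to 26.2 and 21.5 in K19R (-1.60 ± 0.11, adjusted p = 3e-11). Zfp42, also called Rex1, went from 956 and 935 to 631 and 623 CPM in FLAG-WT and from 1093 and 1012 to 288 and 306 in K19R (-1.23 ± 0.14, adjusted p = 3.5e-07). Esrrb, an orphan nuclear receptor, went from 640.2 and 636 to 255 and 249.3 CPM in FLAG-WT and from 636 and 619.7 to 144 and 144 in K19R (-0.78 ± 0.15, adjusted p = 0.00021). All of these fell in both lines.

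Nanog, another naive factor, fell in both lines, from 1394 and 1417 to 94.3 and 93.8 CPM in FLAG-WT and from 1407 and 1366 to 72 and 70.6 in K19R, and its step difference of -0.38 ± 0.14, adjusted p = 0.048 was not called in any of the fits that left out a replicate. Nor was it called with DESeq2 (-0.38, adjusted p = 0.21) or with library totals (-0.37, adjusted p = 0.064). Klf2 showed no call, at -0.05 ± 0.12 (adjusted p = 0.81). Klf5, a factor shared by naive cells and endoderm, rose in both lines, from 79 and 72.6 to 504 and 494 CPM in FLAG-WT and from 67.9 and 70.4 to 104 and 111 in K19R (-2.09 ± 0.11, adjusted p = 1.6e-13). Fgf4, the growth factor secreted by naive and epiblast cells, was the exception in sign, from 441 and 456 to 198 and 211 CPM in FLAG-WT and from 483 and 468 to 310.1 and 278 in K19R (0.44 ± 0.15, adjusted p = 0.029). It was not called with DESeq2 (0.44, adjusted p = 0.20). The call was also lost without FLAG-WT day 0 replicate 2, FLAG-WT day 2 replicate 1, either K19R day 0 replicate or K19R day 2 replicate 1 (0.36 to 0.46). Of 10 general pluripotency genes 1 was called positive and 1 negative, where 12.7% and 14.4% of all genes were. Pou5f1 and Sox2, whose proteins act together in naive and primed cells alike, had step differences of 0.00 ± 0.13 and 0.08 ± 0.12 and were not called. The negative call was Sall4 (-0.58 ± 0.11, adjusted p = 0.00018), a zinc-finger partner of Pou5f1. The positive one was Trim28 (0.32 ± 0.10, adjusted p = 0.018), a corepressor that silences retroelements. It was not called without FLAG-WT day 0 replicate 1, either K19R day 0 replicate, or replicate 2 of either line at day 2 (0.29 to 0.32, adjusted p up to 0.081).

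Of 14 genes of the LIF pathway 6 were negative and 2 positive, against 14.4% and 12.7% of all genes. The calls fell on receptors and on targets. Lifr, the LIF receptor, stood at 77.5 and 80.4 at day 0 and 71.1 and 73.5 at day 2 in FLAG-WT, and 81.2 and 86.3 then 35.4 and 29.3 in K19R (-1.24 ± 0.12, adjusted p = 9.3e-09) and fell in K19R alone. Its signalling partner Il6st, known as gp130, fell in both lines, with a step difference of -0.56 ± 0.11, adjusted p = 0.00041. The transducer Stat3 was not called (0.05 ± 0.10, adjusted p = 0.76). Among 11 STAT3 targets 4 were negative and 2 positive, against 14.4% and 12.7% of all genes. Socs3, the feedback inhibitor of the pathway, fell from 79.3 and 78.5 to 1.64 and 1.59 CPM in FLAG-WT and from 82.1 and 77.1 to 2.05 and 2.27 in K19R, and its step difference was not called (0.41 ± 0.23, adjusted p = 0.21).

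Of 17 formative genes tested, 9 were positive and 2 negative, against 12.7% and 14.4% of all genes, with a median of 0.41, or 0.55 with Fgf5, which had 0 counts in FLAG-WT at day 0, at its bound. Without FLAG-WT day 0 replicate 2 there were 8 positive and 2 negative. Pou3f1 (chr4:124656807-124660655), also called Oct6, a POU factor of the epiblast, went from 4.13 and 4.902 to 92.4 and 96.9 CPM in FLAG-WT and from 3.28 and 3.86 to 293 and 324 in K19R (2.06 ± 0.21, adjusted p = 2.4e-08). Sall2, a zinc-finger factor, went from 21.8 and 21.4 to 46.3 and 47.1 CPM in FLAG-WT and from 18.2 and 16.1 to 100.1 and 94 in K19R (1.39 ± 0.12, adjusted p = 1.2e-09). Zic2, Zic5 and the methyltransferase gene Dnmt3a had smaller values, of 0.55 ± 0.13, 0.61 ± 0.13 and 0.41 ± 0.09, each called.

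Other markers of the same state were not called. Otx2, a homeobox factor, and Dnmt3b, a de novo methyltransferase, rose in both lines with step differences of 0.05 ± 0.12 and -0.03 ± 0.11 (adjusted p = 0.84 and 0.89). Dnmt3b was already higher in K19R at day 0, going from 79.6 and 84.1 to 882 and 918 CPM in FLAG-WT and from 126 and 132 to 1483 and 1294 in K19R. Dnmt3l, its cofactor, had started higher too and rose less in K19R, from 106 and 108 to 384 and 379.8 CPM in FLAG-WT and from 259 and 259.6 to 398 and 429 in K19R (-1.16 ± 0.14, adjusted p = 5.2e-07). The line difference of Dnmt3l was called at day 0 (1.27 ± 0.10) and not at day 2 (0.11 ± 0.10, adjusted p = 0.38).

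**Figure D4:**
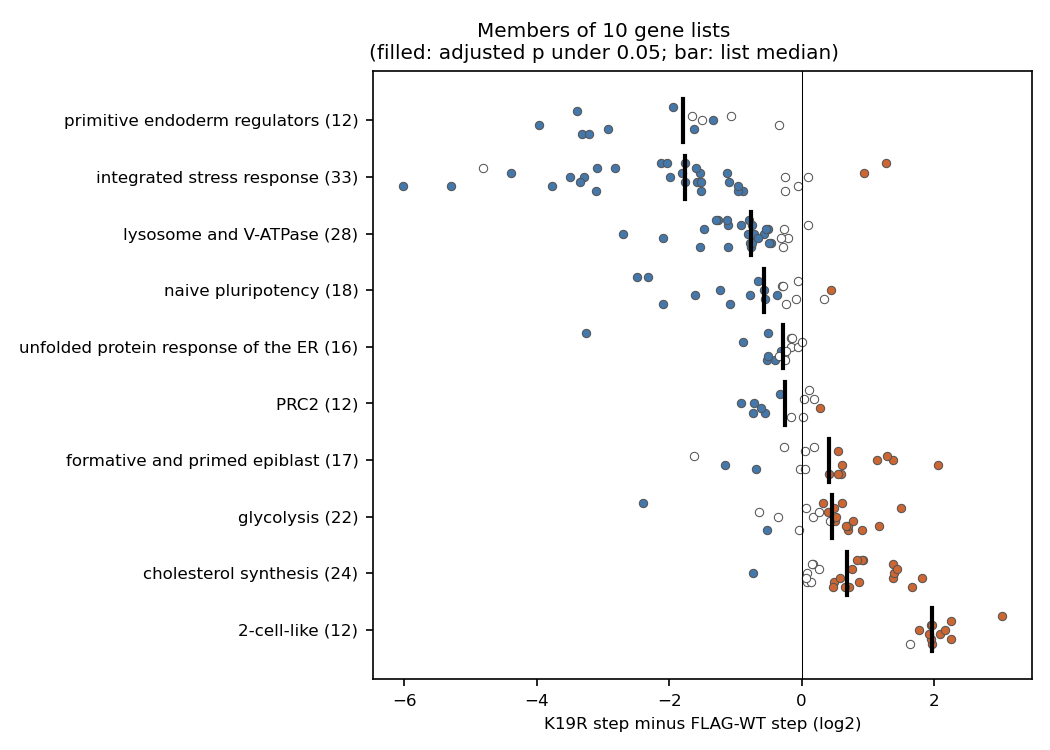
Step difference (log2) of each tested member of 10 gene lists, with the median of each list as a bar and called members as filled points. The integrated stress response and primitive endoderm regulators lie lowest, with medians of -1.76 and -1.80, and the 2-cell-like genes highest, at 1.96.

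Most genes of the integrated stress response rose in FLAG-WT, while in K19R more of them fell than rose. In this response, kinases that sense missing amino acids or unfolded protein raise translation of the factor ATF4, which then switches on amino acid synthesis, transport and stress genes. Of 33 genes tested, 26 had a negative and 2 a positive step difference, against 14.4% and 12.7% of all genes. The median was -1.76, or -1.60 with Fgf21, at 0 counts in a group, at its bound, and the counts were the same without FLAG-WT day 0 replicate 2. In FLAG-WT 28 of the 33 rose and 2 fell over the step, where 28.5% and 27.6% of all genes did. In K19R 8 rose and 18 fell, against 28.5% and 27.9% of all genes.

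ATF4 binds composite elements of the form TGATGNAA, and the promoters of 4 members with this motif are shown, since their genes are among those whose values are given. Each line holds the 250 bases before the RefSeq start site on GRCm38.p6, 5′ to 3′ on the gene's strand, with the motif on either strand in capitals. They lie at chr2:119350992-119351241 (plus strand) for Chac1, chr7:126625471-126625720 (minus strand) for Nupr1, chr19:27216770-27217019 (plus strand) for Vldlr and chr6:7693210-7693459 (minus strand) for Asns.
Chac1: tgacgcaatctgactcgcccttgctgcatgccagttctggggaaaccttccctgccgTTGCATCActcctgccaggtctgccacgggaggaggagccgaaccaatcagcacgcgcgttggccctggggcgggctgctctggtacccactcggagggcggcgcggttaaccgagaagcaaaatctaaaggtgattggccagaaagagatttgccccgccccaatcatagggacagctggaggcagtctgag
Nupr1: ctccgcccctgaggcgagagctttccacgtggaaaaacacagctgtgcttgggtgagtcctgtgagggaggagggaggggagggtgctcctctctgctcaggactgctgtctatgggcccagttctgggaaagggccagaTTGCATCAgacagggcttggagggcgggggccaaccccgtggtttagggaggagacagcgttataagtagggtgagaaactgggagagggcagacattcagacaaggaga
Vldlr: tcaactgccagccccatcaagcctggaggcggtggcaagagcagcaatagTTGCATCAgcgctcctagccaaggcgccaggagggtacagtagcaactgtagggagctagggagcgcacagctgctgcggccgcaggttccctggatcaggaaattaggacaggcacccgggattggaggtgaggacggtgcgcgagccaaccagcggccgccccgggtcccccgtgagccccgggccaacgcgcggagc
Asns: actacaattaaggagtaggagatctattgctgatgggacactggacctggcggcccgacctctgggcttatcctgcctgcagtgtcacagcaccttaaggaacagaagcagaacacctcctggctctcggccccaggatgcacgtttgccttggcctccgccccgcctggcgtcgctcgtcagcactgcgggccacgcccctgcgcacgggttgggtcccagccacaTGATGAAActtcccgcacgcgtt
The window searched ran from 250 bases before to 50 after the start site, on both strands. It held the motif in 10 of the 29 members with a promoter in the table (34.5%), in 371 of the 12912 tested genes with one (2.87%), and in 1304 of all 32851 promoters (3.97%). The 10 were Atf3, Chac1, Trib3, Nupr1, Fgf21, Vldlr, Asns, Pycr1, Slc7a11 and Slc1a4. Of these, 8 were called, which is no larger a share than the 28 of 33 (84.8%) called in the whole list. The motif lay 193 bases before the start of Chac1, 110 before that of Nupr1, 200 before that of Vldlr and 23 before that of Asns. A match describes the sequence and does not show binding.

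Among transcription factors of the response, 5 of 6 were negative and 1 positive, against 14.4% and 12.7% of all genes. Atf4 (chr15:80255184-80257541) went from 171 and 159.7 to 226 and 239.8 CPM in FLAG-WT and from 197 and 189 to 68.8 and 86.9 in K19R (-1.81 ± 0.12, adjusted p = 1.8e-11), so that it rose in FLAG-WT and fell in K19R. Atf5, a related factor, went from 13 and 11.8 to 27.7 and 29 CPM in FLAG-WT and from 13.9 and 14.9 to 4.56 and 4.75 in K19R (-2.82 ± 0.19, adjusted p = 1.3e-11). Atf3 went from 3.88 and 3.16 to 10.5 and 11.9 CPM in FLAG-WT and from 4.46 and 3.35 to 1.25 and 1.32 in K19R (-3.29 ± 0.25, adjusted p = 1.8e-10). Ddit3, known as CHOP, a factor that promotes cell death under lasting stress, went from 6.11 and 6.17 to 11.3 and 10.4 CPM in FLAG-WT and from 5.76 and 6.14 to 2.31 and 2.99 in K19R (-1.99 ± 0.40, adjusted p = 0.00047). The positive gene was Cebpb, at 0.627 to 2.53 CPM (1.28 ± 0.38, adjusted p = 0.013), which was not called without K19R day 0 replicate 1 (1.06, adjusted p = 0.1).

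The effectors held the largest values of the response, with 6 of 9 negative and 1 positive, against 14.4% and 12.7% of all genes. Beside Chac1 and Nupr1, Trib3 (chr2:152337422-152344032), a pseudokinase that restrains ATF4, went from 8.67 and 7.99 to 56.8 and 58.8 CPM in FLAG-WT and from 12.3 and 10.7 to 6.39 and 7.87 in K19R (-3.49 ± 0.16, adjusted p = 5.7e-15). Sesn2, an inhibitor of mTORC1 that senses leucine, went from 113 and 108 to 187 and 192 CPM in FLAG-WT and from 121 and 128 to 112 and 107 in K19R (-0.96 ± 0.10, adjusted p = 6.9e-08). The stress-induced cytokine Gdf15 went from 6.27 and 5.46 to 9.61 and 10.5 CPM in FLAG-WT and from 4.94 and 6.097 to 2.54 and 3.02 in K19R (-1.76 ± 0.23, adjusted p = 2.4e-06). Ddit4, another mTORC1 inhibitor, was the positive member, from 34.8 and 38.1 to 28.2 and 28.8 CPM in FLAG-WT and from 38.6 and 36.4 to 59.3 and 53.7 in K19R (0.94 ± 0.12, adjusted p = 2e-06), falling in FLAG-WT and rising in K19R.

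All 10 enzymes of amino acid and one-carbon metabolism were negative, where 14.4% of all genes were. Aldh18a1 (chr19:40550257-40588463), which starts proline synthesis, went from 34.4 and 36.5 to 211 and 201 CPM in FLAG-WT and from 46 and 41.2 to 29.98 and 28.9 in K19R (-3.11 ± 0.11, adjusted p = 3.3e-17). Pycr1, which completes it, went from 35.8 and 34.1 to 65.2 and 62.9 CPM in FLAG-WT and from 59.9 and 59.9 to 25.8 and 24.5 in K19R (-2.12 ± 0.12, adjusted p = 2.3e-13). Asns, asparagine synthetase, went from 341 and 342 to 454 and 466 CPM in FLAG-WT and from 382 and 363 to 157 and 178 in K19R (-1.58 ± 0.11, adjusted p = 2e-11). Each of these 3 rose in FLAG-WT and fell in K19R. In serine synthesis the step difference was -1.09 ± 0.10 for Phgdh, -1.54 ± 0.10 for Psat1 and -1.60 ± 0.12 for Psph. The mitochondrial folate enzymes Mthfd2 and Shmt2 rose in FLAG-WT alone, with step differences of -1.52 ± 0.10 and -0.96 ± 0.10. Mthfd2 stood at 65.3 and 68.4 at day 0 and 176 and 173 at day 2 in FLAG-WT, and 76.3 and 76.7 then 67.3 and 72.1 in K19R. Cth, which makes cysteine, fell in both lines and further in K19R (-1.52 ± 0.11, adjusted p = 9.2e-11).

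Of 8 amino acid transporters 5 were negative and none positive, against 14.4% and 12.7% of all genes. Slc1a4 (chr11:20302180-20332713), a carrier of serine and alanine, went from 14.3 and 15.5 to 97.3 and 94.5 CPM in FLAG-WT and from 22.8 and 24.2 to 15.5 and 14.1 in K19R (-3.35 ± 0.13, adjusted p = 4.5e-16). Slc7a1, the arginine carrier, went from 145 and 150.2 to 302 and 297 CPM in FLAG-WT and from 183 and 184 to 98.3 and 83.5 in K19R (-2.03 ± 0.11, adjusted p = 9.8e-14). Slc7a5 and Slc3a2, the 2 chains of the leucine exchanger, rose in both lines, and by less in K19R. Slc7a5 went from 184 and 178 to 787 and 796 CPM in FLAG-WT and from 179 and 170.2 to 229.9 and 220.5 in K19R (-1.76 ± 0.09, adjusted p = 5.4e-14), and Slc3a2 had a step difference of -1.13 ± 0.09, adjusted p = 4.7e-10.

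The unfolded protein response of the endoplasmic reticulum is a neighbouring pathway. Of 16 genes 7 were negative and none positive, against 14.4% and 12.7% of all genes. The median was -0.29, and with the 8 libraries of days 0 and 2 fitted alone 11 were called. That fit called 6074 of 17844 genes over all, against 5182 of 19092 in the main fit. Herpud1, a degradation factor that ATF4 also induces, went from 20.1 and 19.4 to 116 and 113 CPM in FLAG-WT and from 23.3 and 22.9 to 12.9 and 15.3 in K19R (-3.25 ± 0.12, adjusted p = 2e-16). Hspa5, the main chaperone of the compartment, fell in both lines and was not called (-0.34 ± 0.16, adjusted p = 0.11). Xbp1, a transcription factor of the response, had a step difference of -0.51 ± 0.10, adjusted p = 0.0003.

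Of 28 genes for lysosomal enzymes, membrane proteins and the proton pump, 23 were negative and none positive, against 14.4% and 12.7% of all genes. The median was -0.76, and 24 were negative without FLAG-WT day 0 replicate 2. In FLAG-WT 25 rose and 1 fell over the step, where 28.5% and 27.6% of all genes did. In K19R 11 rose and 7 fell, against 28.5% and 27.9% of all genes. Ctsl (chr13:64359337-64370890), a cysteine protease abundant in endoderm, went from 109.6 and 124 to 1088 and 1106 CPM in FLAG-WT and from 124 and 115 to 167 and 179 in K19R (-2.69 ± 0.11, adjusted p = 6.5e-16; without FLAG-WT day 0 replicate 2 -2.79, adjusted p = 2.4e-16). Atp6v0a1, a subunit of the pump's membrane part, went from 53.8 and 57.2 to 299 and 305 CPM in FLAG-WT and from 61.6 and 64 to 82 and 77.6 in K19R (-2.10 ± 0.11, adjusted p = 8e-14). Hexa, a lysosomal hydrolase, rose in FLAG-WT and fell in K19R, from 40.3 and 40.6 to 80.2 and 82.7 CPM in FLAG-WT and from 53.3 and 49.4 to 32.9 and 39 in K19R (-1.53 ± 0.11, adjusted p = 1.1e-10). Tfeb, which regulates lysosomal genes, fell in K19R alone and stood at 16.1 and 16 at day 0 and 16.3 and 15.4 at day 2 in FLAG-WT, and 15.9 and 16.5 then 6.26 and 6.79 in K19R (-1.29 ± 0.14, adjusted p = 1.5e-07). The summed endoderm markers, mostly Cubn and Dab2, moved with these genes, at 3280 and 3356 CPM in FLAG-WT and 319 and 253 in K19R at day 2. Their part in the lysosomal result was not tested.

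Of 24 genes of cholesterol synthesis 16 were positive and 1 negative, against 12.7% and 14.4% of all genes. The median was 0.68, and the counts were 15 and 1 without FLAG-WT day 0 replicate 2. In FLAG-WT 10 rose and 6 fell over the step, shares of all genes being 28.5% and 27.6%. In K19R 21 rose and 1 fell, those shares being 28.5% and 27.9%. Hmgcs1 (chr13:119690379-119708260), which makes the HMG-CoA that the pathway starts from, went from 129.6 and 120.1 to 95.8 and 97.5 CPM in FLAG-WT and from 111 and 102 to 263 and 262 in K19R (1.67 ± 0.19, adjusted p = 1.6e-07). It fell in FLAG-WT and rose in K19R. Idi1, an isoprenoid isomerase, went from 19.7 and 20.2 to 14.5 and 12.8 CPM in FLAG-WT and from 20.2 and 18.9 to 47.8 and 46.7 in K19R (1.83 ± 0.17, adjusted p = 6.8e-09). Sqle, squalene epoxidase, stood at 62.5 and 64.8 at day 0 and 65.8 and 62.8 at day 2 in FLAG-WT, and 76.8 and 71.2 then 136 and 131 in K19R (0.84 ± 0.15, adjusted p = 0.0001), and its FLAG-WT step was not called. Dhcr7, which catalyses the last step of the pathway, stood at 29.6 and 28.4 at day 0 and 30.01 and 32.5 at day 2 in FLAG-WT, and 31.8 and 27.6 then 85.3 and 81.9 in K19R (1.38 ± 0.18, adjusted p = 2.6e-06), with no call in FLAG-WT either.

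Of 5 genes that regulate sterol supply 3 were positive, against 12.7% of all genes. Insig1, the sterol sensor that holds back the pathway, went from 49.7 and 48.3 to 43.1 and 37.4 CPM in FLAG-WT and from 45.4 and 41 to 98.1 and 88.5 in K19R (1.397 ± 0.17, adjusted p = 4.3e-07). Srebf2, whose protein activates these genes, rose in both lines and more in K19R (0.48 ± 0.11, adjusted p = 0.0016). The negative enzyme was Ebp, a sterol isomerase (-0.74 ± 0.14, adjusted p = 0.00031). SREBP proteins bind sterol elements, of which the form TCACNCCAC lay on either strand in 1 of the 16 members with a promoter (6.25%, Hmgcs1), in 1.495% of the tested genes and in 1.24% of all promoters.

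Of 22 glycolysis genes 13 were positive and 2 negative, against 12.7% and 14.4% of all genes, with a median of 0.46. Of its 16 enzymes 11 were positive and 1 negative. Ldha (chr7:46841475-46855627), which turns pyruvate to lactate, went from 409 and 423 to 504 and 484 CPM in FLAG-WT and from 618 and 577 to 1580.5 and 1600.5 in K19R (1.17 ± 0.10, adjusted p = 1.2e-09). It rose in both lines, and the K19R libraries were above the FLAG-WT ones at both days. Tpi1 went from 73.2 and 72.3 to 112 and 116 CPM in FLAG-WT and from 111 and 115 to 343 and 329.5 in K19R (0.92 ± 0.10, adjusted p = 6e-08), and Pgk1 went from 213 and 209 to 332 and 337 CPM in FLAG-WT and from 256 and 242 to 667 and 679.8 in K19R (0.78 ± 0.10, adjusted p = 7.2e-07). The negative enzyme was Pfkp, the platelet form of phosphofructokinase (-0.52 ± 0.09, adjusted p = 0.00017). The 2 glucose transporters of the list went in opposite directions. Slc2a1, the widespread form GLUT1, went from 117 and 121 to 82.6 and 78 CPM in FLAG-WT and from 160.04 and 156 to 317 and 289.7 in K19R (1.51 ± 0.11, adjusted p = 1.6e-10), while Slc2a3, the high-affinity form GLUT3, went from 757 and 781 to 1621 and 1629 CPM in FLAG-WT and from 741 and 719 to 305 and 279 in K19R (-2.40 ± 0.13, adjusted p = 1.1e-13).

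Hypoxia genes were mixed, with 6 of 16 positive and 5 negative, against 12.7% and 14.4% of all genes. Without FLAG-WT day 0 replicate 2 there were 2 positive and 5 negative. Vegfa, P4ha1 (-1.63 ± 0.11, adjusted p = 2.5e-11), a collagen hydroxylase, and Ndrg1 (-1.48 ± 0.22, adjusted p = 1.1e-05) were negative. Ankrd37 was positive, at 1.98 and 2.25 at day 0 and 0.302 and 0.655 at day 2 in FLAG-WT, and 3.47 and 2.89 then 3.69 and 3.39 in K19R (2.24 ± 0.43, adjusted p = 0.00029).

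The 2-cell-like state is a rare state of mESCs that expresses transcripts of the cleavage embryo. Its genes had positive step differences in 11 of 12, against 12.7% of all genes, with a median of 1.96. The Zscan4 genes among them are near-identical copies, so the 11 calls are not 11 separate observations. The 11 calls stood without FLAG-WT day 0 replicate 2. In FLAG-WT 11 of the 12 fell and none rose (27.6% and 28.5% of all genes did), and in K19R 7 rose and none fell (28.5% and 27.9%). Zscan4d (chr7:11161374-11166159), a telomere-associated factor, went from 24.4 and 22.1 to 9.31 and 10.9 CPM in FLAG-WT and from 12.2 and 12.4 to 23.7 and 24.2 in K19R (2.16 ± 0.21, adjusted p = 1.1e-08). At day 0 the FLAG-WT libraries were above the K19R ones, and at day 2 below them. Zscan4c went from 23.4 and 25.9 to 9.36 and 10.6 CPM in FLAG-WT and from 16.9 and 15.9 to 25.1 and 25.4 in K19R (1.93 ± 0.16, adjusted p = 5e-10) and Zscan4f from 21.8 and 19.4 to 9.098 and 7.93 CPM in FLAG-WT and from 11.6 and 13.7 to 20.5 and 20.02 in K19R (1.97 ± 0.20, adjusted p = 3.1e-08). Usp17lc, a deubiquitinase gene of another near-identical family, was at 4.75 and 4.31 at day 0 and 1.03 and 1.17 at day 2 in FLAG-WT, and 3.03 and 3.77 then 4.17 and 3.73 in K19R (2.25 ± 0.33, adjusted p = 7.9e-06), and its K19R step was not called. Zfp352 was at or under 1.69 CPM in all 8 libraries.

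Among the PRC2 subunits the step differences were under 1 on the log2 scale. Of 12 genes 6 were negative and 1 positive, against 14.4% and 12.7% of all genes, with a median of -0.24. In the core complex, the methyltransferase Ezh2 and the subunit Suz12 were not called (0.04 ± 0.09 and 0.18 ± 0.11). Beside Eed, the histone-binding subunit Rbbp7 was negative, from 265 and 278 to 408 and 412 CPM in FLAG-WT and from 296 and 279 to 222 and 239.9 in K19R (-0.91 ± 0.11, adjusted p = 3.1e-07), as was Ezh1, the form of the enzyme that is kept in resting cells (-0.72 ± 0.10, adjusted p = 3.7e-06). Rbbp4, the close relative of Rbbp7, was the positive one (0.27 ± 0.10, adjusted p = 0.04), though not with no filter (0.26, adjusted p = 0.069). It was not called without replicate 2 of any of the 4 groups, or without FLAG-WT day 2 replicate 1 (0.19 to 0.29, adjusted p = 0.082 to 0.24). Of 6 accessory subunits 3 were negative. These were Epop (-0.61 ± 0.10, adjusted p = 3.6e-05), Jarid2 (-0.33 ± 0.10, adjusted p = 0.011) and Phf19 (-0.74 ± 0.23, adjusted p = 0.019), a subunit that binds methylated lysine. The calls of Jarid2 and Phf19 were lost without 1 replicate, that of Jarid2 without K19R day 2 replicate 2 (-0.26, adjusted p = 0.058) and that of Phf19 without FLAG-WT day 0 replicate 1 (-0.45, adjusted p = 0.19), FLAG-WT day 2 replicate 2 (-0.67, adjusted p = 0.083) or K19R day 0 replicate 2 (-0.73, adjusted p = 0.053).

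In PRC1, the complex that reads the PRC2 mark, 8 of 19 genes were negative and 4 positive, against 14.4% and 12.7% of all genes. The chromobox genes differed in sign. Cbx8 went from 17 and 16 to 3.88 and 4.0 CPM in FLAG-WT and from 18.2 and 15.8 to 1.51 and 1.36 in K19R (-1.504 ± 0.23, adjusted p = 1.2e-05), and Cbx2 was at 66.9 and 67.4 at day 0 and 40.1 and 39.8 at day 2 in FLAG-WT, and 60.3 and 62.6 then 60.7 and 50.7 in K19R (0.61 ± 0.12, adjusted p = 0.0005). Of 13 genes for acetyltransferases and deacetylases 1 was called, Kat2a (0.32 ± 0.09, adjusted p = 0.011), and it was not without FLAG-WT day 0 replicate 1 (0.30, adjusted p = 0.054). Crebbp and Ep300, which encode CBP and P300, had step differences of -0.02 ± 0.14 and 0.10 ± 0.13 (adjusted p = 0.94 and 0.64). In DNA methylation, the maintenance factor Uhrf1 was positive (0.47 ± 0.10, adjusted p = 0.00075). The oxidase gene Tet2 was negative, from 272 and 278 to 115 and 113 CPM in FLAG-WT and from 261 and 294 to 62.7 and 47.4 in K19R (-1.06 ± 0.13, adjusted p = 7.9e-07).

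Developmental regulators that textbooks list as Polycomb targets were called in 11 of 33, a share (33.3%) near that of all genes (27.1%), with 6 positive and 5 negative. The count was 7 without FLAG-WT day 0 replicate 2 or K19R day 0 replicate 1, with 3 positive and 4 negative each time, and 6 without K19R day 0 replicate 2, with 2 and 4. Wt1, a kidney and mesothelium factor, went from 1.03 and 0.633 to 23 and 22.8 CPM in FLAG-WT and from 1.22 and 0.512 to 70.3 and 63.5 in K19R (1.43 ± 0.38, adjusted p = 0.0055), though it was not called without FLAG-WT day 0 replicate 1 (1.04, adjusted p = 0.15) or K19R day 0 replicate 2 (0.99, adjusted p = 0.053). Gata3, a trophoblast and T cell factor, fell in both lines, from 25.6 and 26.2 to 1.51 and 1.24 CPM in FLAG-WT and from 35 and 32.7 to 0.161 and 0.543 in K19R (-2.34 ± 0.36, adjusted p = 1.7e-05). Lmx1b, a limb and neuron factor, fell in both as well (-2.30 ± 0.24, adjusted p = 6.5e-08).

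For the signalling lists, the shares over all genes were again 12.7% positive and 14.4% negative. In the Nodal pathway, which patterns the epiblast, 5 of 18 genes were positive and 6 negative. The ligand Nodal was not called (0.36 ± 0.15, adjusted p = 0.07). Its coreceptor gene Tdgf1 was positive, at 529 and 513 at day 0 and 564 and 579 at day 2 in FLAG-WT, and 525 and 504 then 860.3 and 844 in K19R (0.60 ± 0.17, adjusted p = 0.011), though not with DESeq2 (adjusted p = 0.18). The receptor genes differed, with Acvr2b positive (1.07 ± 0.16, adjusted p = 8.9e-06) and Acvr1b negative (-0.68 ± 0.13, adjusted p = 0.00022). The antagonist Lefty1 gained more in K19R, from 19.9 and 17.2 to 44.4 and 38.3 CPM in FLAG-WT and from 24.1 and 26.8 to 89.8 and 101 in K19R (0.75 ± 0.16, adjusted p = 0.0011), as did Skil, a corepressor of SMAD proteins, from 62.1 and 58.9 to 263 and 269.9 CPM in FLAG-WT and from 47.8 and 49.2 to 433 and 407 in K19R (0.98 ± 0.12, adjusted p = 7.4e-07).

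In the FGF and ERK list 6 of 28 were positive and 7 negative, and 2 and 7 without FLAG-WT day 0 replicate 2. The receptor genes gave 3 of 4 negative. Fgfr2, which receives Fgf4 in primitive endoderm, went from 8.88 and 9.37 to 13.1 and 15 CPM in FLAG-WT and from 21.1 and 21.9 to 7.58 and 6.45 in K19R (-2.24 ± 0.18, adjusted p = 2.7e-10), and Fgfr3 went from 0.578 and 0.988 to 11.9 and 11 CPM in FLAG-WT and from 1.14 and 0.652 to 1.798 and 1.73 in K19R (-2.92 ± 0.35, adjusted p = 5e-07). Dusp6 and Dusp4, phosphatases that dampen ERK, rose in both lines with step differences of opposite sign (0.76 ± 0.23 and -0.66 ± 0.22). Both of these calls were lost without FLAG-WT day 0 replicate 1 or K19R day 0 replicate 1, at 0.68 and 0.65 for Dusp6 (adjusted p = 0.069 and 0.088) and -0.51 and -0.49 for Dusp4 (adjusted p = 0.18 and 0.27). The Dusp4 call was lost without K19R day 2 replicate 1 too (-0.59, adjusted p = 0.058). Spry4, another feedback inhibitor, was not called (-0.58 ± 0.27, adjusted p = 0.15).

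WNT targets were positive in 5 of 16 and negative in 1. Tcf7, a transcription factor of the pathway, went from 58.2 and 57.6 to 84.2 and 88.9 CPM in FLAG-WT and from 37.4 and 37.6 to 145 and 143 in K19R (1.36 ± 0.11, adjusted p = 3.4e-10). The negative gene was the secreted WNT antagonist Dkk1, which anterior visceral endoderm also makes, from 3.22 and 2.77 to 107 and 101 CPM in FLAG-WT and from 2.14 and 2.37 to 11.5 and 12.2 in K19R (-2.72 ± 0.24, adjusted p = 2.1e-09; without FLAG-WT day 0 replicate 2 -2.62, adjusted p = 1.4e-08). BMP pathway genes were positive in 7 of 17 and negative in 1. The targets Id1 and Id3, inhibitors of helix-loop-helix factors, had started lower in K19R. Id1 went from 29.3 and 35.8 to 44.5 and 45.2 CPM in FLAG-WT and from 14.6 and 13 to 43.7 and 41.6 in K19R (1.16 ± 0.13, adjusted p = 2.2e-07) and Id3 from 6.23 and 7.51 to 9.44 and 9.38 CPM in FLAG-WT and from 3.87 and 4.42 to 16.4 and 17.7 in K19R (1.59 ± 0.18, adjusted p = 1.8e-07). Msx1, a homeobox target, was at 1.403 and 1.58 at day 0 and 1.94 and 1.93 at day 2 in FLAG-WT, and 1.25 and 0.884 then 9.18 and 7.603 in K19R (2.57 ± 0.40, adjusted p = 1.9e-05) and rose in K19R alone.

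The lines were compared again at days 6 and 10, as a comparison added after seeing the data. These libraries do not enter the contrast of the step difference. They do share its fit, and so its gene filter, its estimate of spread and its adjusted p. The line difference was called in 58.5% of all genes at day 6 and 58.4% at day 10. Of the 5182 genes, 2760 had a called line difference of the same sign at day 6 and 1046 of the other sign. At day 10 the counts were 2181 and 1519. The balance of signs over all genes depended on the scaling. At day 6, 5429 genes were called higher and 5742 lower in K19R, and at day 10 6336 and 4806. With RLE size factors these counts were 5494 and 5662, then 5816 and 5330. With library totals they were 8582 and 3188, then 9329 and 2785. The split of the 5182 genes by sign was not repeated with other scaling. Lama1, Ctsl and Gata4 were lower in K19R at day 6, at -1.38 ± 0.13, -1.67 ± 0.08 and -0.77 ± 0.08 (K19R minus FLAG-WT, log2). At day 10 Lama1 was still lower (-1.37 ± 0.13), while Gata4 and Ctsl were not called (0.18 ± 0.08, adjusted p = 0.062, and 0.16 ± 0.07, adjusted p = 0.062).

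Other genes turned after day 2. Chac1 was lower in K19R at day 2 (-4.75 ± 0.18) and higher at days 6 and 10 (0.78 ± 0.23 and 0.68 ± 0.18). Asns did the same, at -1.46 ± 0.08, 0.56 ± 0.08 and 0.70 ± 0.08. Zfp42 and Esrrb, lower in K19R at day 2 (-1.08 ± 0.10 and -0.81 ± 0.11), were higher at day 6 (0.84 ± 0.11 and 2.28 ± 0.13) and at day 10 (2.18 ± 0.12 and 4.72 ± 0.17). Klf4 was lower at all 3 later days, at -2.28 ± 0.10, -1.81 ± 0.09 and -0.50 ± 0.08. Pou3f1 was higher at day 2 and day 6 (1.71 ± 0.09 and 0.92 ± 0.12) and not called at day 10 (-0.32 ± 0.15, adjusted p = 0.077). Zscan4d was higher at day 2 (1.24 ± 0.15), lower at day 6 (-0.91 ± 0.26) and higher at day 10 (2.89 ± 0.24).

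**Figure D5:**
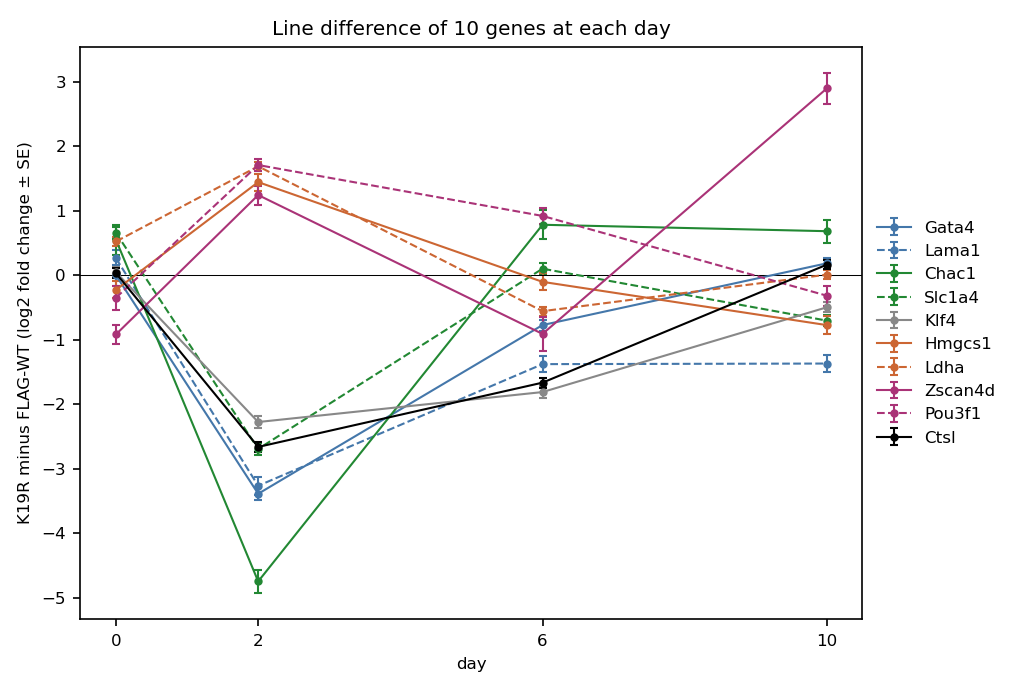
Line difference (K19R minus FLAG-WT, log2, with SE) of 10 genes at days 0, 2, 6 and 10. Lama1 lies below 0 at each of the 3 later days, while Chac1 crosses from below 0 at day 2 to above 0 at days 6 and 10.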

How the data were processed

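RNA-seq of 16 FLAG-EED libraries (8 groups of 2) was analysed, of which the 8 of days 0 and 2 make the step difference. Per the labels' protocols, RNeasy columns gave the RNA and a VAHTS kit for total RNA the libraries. The deposited tables hold unnormalized counts of read pairs for each gene name, made by the authors with featureCounts 1.6.3 over GENCODE vM19 exons on GRCm38, per the file headers. Pairs with both ends mapped were kept, chimeric pairs were left out and no strand option was given, per the file headers, so antisense and overlapping genes such as Xist and Tsix are uncertain. STAR 2.7.0c, Trim Galore 0.6.0, bcl2fastq 2.17 and FastQC 0.11.7 are listed in the submitters' processing notes. Positions are on GRCm38, counted from 1.

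Genes were kept with filterByExpr (by group, with minimum counts of 10 for a library and 15 over all), so that 19092 of 54429 names remained. Counts were scaled by TMM and fitted with edgeR 4.0.16 in R 4.3.3 (glmQLFit, glmQLFTest, 1 coefficient per group, 8 residual degrees of freedom). The test was run on counts simulated with 1 spread for all genes and groups. That run cannot show how the test behaves where the spread differs among genes or groups. P was two-sided and Benjamini-Hochberg adjusted across the genes tested, with 0.05 as the threshold. SE is the absolute log2 change over the square root of F. The members and the 33 gene lists (556 genes) were chosen with earlier results of these data known, so their directions are no independent support.

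Named genes were list members and, among genes with a symbol, over 3 counts in each of the 8 libraries, a mean of at least 5 CPM and a call that held without FLAG-WT day 0 replicate 2, the 12 largest in each direction and the 4 largest of each class. Not all of these are printed, and a few list members are not reported here. Alternatives were RLE size factors, library totals, no filter, DESeq2 1.42.0, the 8 libraries alone, a replicate block and leaving out each replicate. The wildtype mESCs grown without 2i were not used here. Promoters came from the RefSeq table of GRCm38.p6.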

Additional observations from a re-analysis of the deposited data

Results flagged for a closer look

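The lines differed in the step by a direct test of the interaction in 5182 genes, and in 559 of them the steps of the lines, each called, had opposite signs. Of those 559, the 4 largest values by the rule for named genes were those of Nupr1 (-6.02), Chac1 (-5.29), Srgn (-4.29) and Cemip (-3.83), each of which rose in FLAG-WT and fell in K19R. Groups of 2 libraries are too small for a test of single outlying libraries.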

How the results depend on the processing

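The count of 5182 genes was 5171 with RLE size factors, 5145 with library totals, 4853 with no filter, 4793 with DESeq2, 6074 with the 8 libraries alone and 3918 to 4827 when each replicate was left out. The day 0 count of 2003 ranged from 845 to 2148 when each replicate was left out, and the class of 825 genes that moved the same way but less in K19R from 539 to 660. Of 232 genes tested singly, 206 were called and 177 of these were called under every alternative. Of their 3247 values, 3124 kept direction and side of the threshold, 96 lost and 26 gained the call. Rbp4 alone turned its sign, from 0.67 to -1.02 without FLAG-WT day 0 replicate 2, a library in which it stood at 10.4 CPM against 1.94 in replicate 1, and was 1.41 without replicate 1. Some of the 232 genes were named by a rule that asked for a call without FLAG-WT day 0 replicate 2. The share of calls kept is therefore partly set by that choice, and was not counted over all genes.

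Same-numbered replicates did not deviate together (correlations of -0.025 to 0.0074 between groups), so the numbers are taken as names only. With a replicate block the count of called genes was 5047 for the step difference, 10617 and 10679 for the FLAG-WT and K19R steps, and 1921 and 7868 for the line differences at days 0 and 2.

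Called members of the p53 list fell from 8 to 4 or 5 in 6 of the 8 fits that left out a replicate, and those of the hypoxia list from 11 to 7 without FLAG-WT day 0 replicate 2. The lowest counts of other lists in such fits were 5 against 8 with all libraries for germ cells and for adhesion, 6 against 11 for Polycomb targets and 2 against 5 for blood and endothelium. They were 2 against 4 for fibroblast genes, and 1 against 2 for general pluripotency, neural and trophoblast genes. Acetylation genes were called in 0 to 3 (1 with all libraries), and 5 genes of the streak and mesoderm list were called without K19R day 2 replicate 1, against 3. In each such fit 1 group has 1 library, and its spread is taken from the others. Genes with 3 or fewer counts in a library (235 of the 5182) have folds that depend on the prior count. The split into classes and the comparisons at days 6 and 10 were added after seeing the data.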

Other observations

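Imprinted genes, which are expressed from 1 parental allele, were called in 11 of 20, 5 positive and 6 negative, where 12.7% and 14.4% of all genes were, as for each list below. H19, a growth-limiting RNA abundant in endoderm, went from 104 and 172 to 2364 and 2259.9 CPM in FLAG-WT and from 22.8 and 23.6 to 968 and 1050.1 in K19R, so that it rose in both lines from a lower start in K19R (1.38 ± 0.18, adjusted p = 2.6e-06; without FLAG-WT day 0 replicate 2 0.97, adjusted p = 5.6e-07). Peg3, a paternally expressed zinc-finger gene, gained less in K19R, from 57.3 and 64.6 to 393 and 405 CPM in FLAG-WT and from 61.8 and 70.7 to 152 and 125 in K19R (-1.64 ± 0.16, adjusted p = 2.5e-08). Grb10, an adaptor that restrains insulin signalling, rose in FLAG-WT alone and stood at 52 and 50.6 at day 0 and 165 and 164 at day 2 in FLAG-WT, and 51.5 and 53.7 then 49.8 and 46.2 in K19R (-1.81 ± 0.14, adjusted p = 1.9e-10). Mest, a paternally expressed hydrolase gene, gained more in K19R (0.82 ± 0.12, adjusted p = 9e-06). Xist, the RNA that silences the X chromosome, stayed at or under 20.9 CPM, and its reads overlap those of Tsix.

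Of 16 genes of the p53 pathway 7 were positive and 1 negative, and 3 and 1 without FLAG-WT day 0 replicate 2, FLAG-WT day 2 replicate 2 or K19R day 0 replicate 2. Trp53 itself fell in both lines, from 723 and 711 to 445 and 443 CPM in FLAG-WT and from 636 and 646 to 566 and 586 in K19R (0.54 ± 0.09, adjusted p = 5.6e-05), and the cell cycle inhibitor Cdkn1a went from 86 and 95.5 to 46.7 and 47.4 CPM in FLAG-WT and from 60.7 and 63.1 to 56.3 and 50.5 in K19R (0.74 ± 0.11, adjusted p = 1.1e-05). The cell death gene Pmaip1, also induced by ATF4, was the negative member, from 15.5 and 14.2 to 51.1 and 61.6 CPM in FLAG-WT and from 20.5 and 22.4 to 36.5 and 42.9 in K19R (-1.04 ± 0.15, adjusted p = 6.3e-06). Of 20 cell cycle genes 6 were positive and 2 negative. Ccnd1, cyclin D1, fell in FLAG-WT alone and stood at 151 and 150.3 at day 0 and 61.6 and 65 at day 2 in FLAG-WT, and 97.9 and 97.9 then 95.4 and 86.5 in K19R (1.15 ± 0.11, adjusted p = 1.5e-08), and Ccne1, cyclin E1, rose in K19R alone, at 128 and 125 at day 0 and 120.2 and 124 at day 2 in FLAG-WT, and 159 and 157 then 261 and 266 in K19R (0.79 ± 0.09, adjusted p = 1.9e-07). Of 18 germ cell genes 4 were positive and 4 negative, and 3 and 2 without FLAG-WT day 0 replicate 2 or K19R day 0 replicate 1, with Dazl, an RNA-binding protein of germ cells, going from 153 and 148 to 26.8 and 26.7 CPM in FLAG-WT and from 49.2 and 51.3 to 15.4 and 15.5 in K19R (0.79 ± 0.15, adjusted p = 0.00021).

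Among 8 blood and endothelial genes 3 were positive and 2 negative. The counts were 1 and 1 without FLAG-WT day 0 replicate 2, and 2 and 1 without replicate 2 of either line at day 2. Kdr, the receptor for VEGFA that early mesoderm expresses, stood at 6.07 and 4.98 at day 0 and 4.53 and 4.17 at day 2 in FLAG-WT, and 4.46 and 3.26 then 10.8 and 10.5 in K19R (1.80 ± 0.29, adjusted p = 2.8e-05) and rose in K19R alone. Tal1, a blood factor near 0 at day 0, stood at 5.52 and 6.76 CPM in FLAG-WT and 20.7 and 19 in K19R at day 2, a line difference of 1.69 ± 0.18 (adjusted p = 2e-08). Runx1, another blood factor, gained less in K19R and stood at 48.9 and 47.4 in FLAG-WT and 4.91 and 4.0 in K19R at day 2. Of 15 genes of adhesion and the epithelial-mesenchymal transition 2 were positive and 6 negative, but 1 and 4 without FLAG-WT day 0 replicate 1 and 0 and 5 without FLAG-WT day 2 replicate 2. Among the negative ones was Vim, a mesenchymal filament protein that rose in FLAG-WT and fell in K19R, from 124 and 123 to 171 and 170.1 CPM in FLAG-WT and from 105 and 98.2 to 83.1 and 85.2 in K19R (-0.74 ± 0.10, adjusted p = 2.5e-06). Epcam, an epithelial adhesion protein, rose in both lines and by a smaller fold in K19R, from 28.3 and 27.8 to 206 and 211 CPM in FLAG-WT and from 44.4 and 44.4 to 231 and 248.99 in K19R (-0.46 ± 0.10, adjusted p = 0.0013). Its level was higher in K19R at both days. Of 7 neural progenitor genes 2 were positive and none negative, and 1 was positive in 5 of the 8 fits that left out a replicate. Of 12 trophoblast genes 1 was positive and 1 negative, and only the negative call stood in all of those 8 fits.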
